A study of Rattus norvegicus with 4 samples.

Results

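Astrocytes of the ventral tegmental area, a ventral midbrain region known for its dopamine neurons, were picked out of a single-nucleus RNA data set by their own transcripts. A barcode, which stands for 1 nucleus, was taken as an astrocyte when the raw UMIs (counted RNA molecules) of Gja1, Aqp4, Agt and Slc7a10 summed to 3 or more and when Pdgfra, Rbfox3, Csf1r and Mog each had 0 UMIs. This rule found 2363 members among 21606 barcodes, or 10.9%. The tissue came from experimentally naive adult Sprague-Dawley rats of 90 to 120 days. There were 4 libraries, female 1, female 2, male 1 and male 2, and each pooled nuclei from 3 animals of 1 sex, so no animal can be told from another within a library and the library was the replicate. Sex was the only factor, and no group was treated. Values given for all 4 libraries below follow the order female 1, female 2, male 1, male 2, and levels are in CPM, the gene's UMIs scaled to an equal total for each summed population. Because reads came from transcript ends and nuclei, levels of different genes are not compared.

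Astrocytes are glial cells that take up transmitter and potassium from the space around synapses, line blood vessels with their endfeet and supply neurons with metabolites and lipids. They are joined to each other by gap junctions, and they differ between brain regions in their transcription factors and in their intermediate filament GFAP. GFAP is abundant in white matter and injured tissue and low in much grey matter, so that many healthy astrocytes hold little Gfap RNA. Of the 4 selecting genes, Gja1 encodes the gap junction protein connexin 43, Aqp4 the water channel of the endfeet, Agt angiotensinogen, and Slc7a10 a transporter of small neutral amino acids including D-serine. The excluding genes mark oligodendrocyte precursors (Pdgfra), neurons (Rbfox3), microglia (Csf1r) and myelinating oligodendrocytes (Mog).

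The members numbered 574, 491, 273 and 1025, that is 9.77%, 9.53%, 7.52% and 14.7% of each library's barcodes. The rule chose the following values, which are a description and were not tested. Agt had a UMI in 98.9% of members, Gja1 in 94.8%, Slc7a10 in 86.0% and Aqp4 in 79.6%, and 65.1% held all 4. Agt stood at 3242, 2493, 3331 and 3009 CPM, Gja1 at 1568, 1159, 1398 and 1348 CPM, Aqp4 at 861, 673, 935 and 773 CPM and Slc7a10 at 830, 571, 797 and 772 CPM. Female 2 had the lowest level of each of the 4 genes. The median member had 18 UMIs of the 4 genes together.

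The threshold fell in a gap of the distribution. Among barcodes without an excluding gene, 4486 had a sum of 0, 506 a sum of 1, 63 a sum of 2, 18 a sum of 3, and 1949 a sum of 11 or more. The barcodes next to the threshold on both sides carried neuron transcripts. Summed over 6 neuron markers (Snap25, Syt1, Stmn2, Slc17a6, Gad2, Slc32a1), those with a sum of 2 were at a mean of 4953 CPM and those with a sum of 3 at 3519 CPM, against 385 CPM in all members. Rbfox3 was detected in 4.13% of all barcodes, so requiring 0 UMIs of it removed few neurons. A further 277 barcodes passed the astrocyte threshold and held an excluding gene. Mog was found in 189 of them, 152 were among the 980 doublet calls, and their median depth was 4229 UMIs against 3082 in the members.

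**Figure D1:**
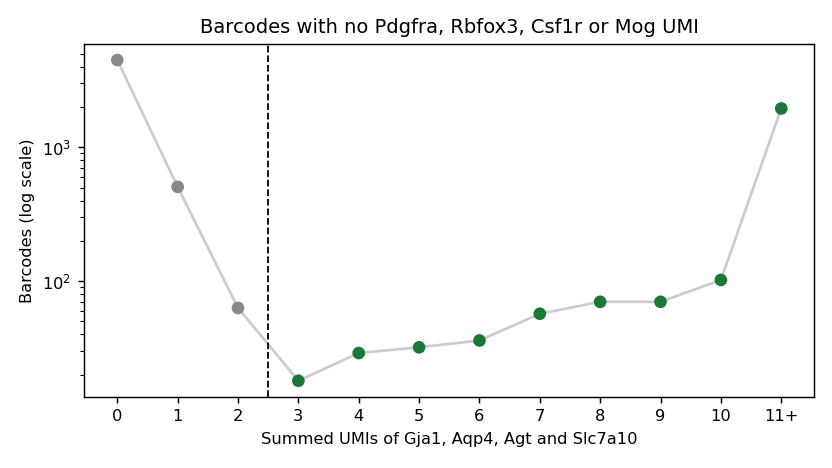
Number of barcodes (vertical log axis) at each summed UMI count of the 4 selecting genes (horizontal axis), among barcodes with no UMI of the 4 excluding genes, all libraries together. Grey points lie below and green points above the threshold (dashed line); the lowest point is the 18 barcodes at a sum of 3, between 4486 at 0 and 1949 at 11 or more.

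Markers that the rule did not use went with the label. Slc1a2 and Slc1a3, the main glutamate transporters of astrocytes, had a UMI in 84.7% and 96.6% of members on average over libraries. Among other barcodes these shares were 4.34% and 35.5%. For comparison, 1027 Pdgfra barcodes, 8201 Mog barcodes and 690 Csf1r barcodes were formed, each with 3 or more UMIs of the named gene and none of the selecting and other excluding genes. Slc1a3 was present in 78.1% of Csf1r barcodes, so it was not restricted to the members. Markers of neurons, oligodendrocytes, microglia and precursors were below all other barcodes. This follows in part from the rule, which left out every barcode with an excluding gene. The 6 neuron markers summed to 291 to 440 CPM over libraries against 2525 to 3153 CPM in all other barcodes. In Mog, Pdgfra and Csf1r barcodes they were at 224 to 429, 928 to 1303 and 159 to 977 CPM. The 5 oligodendrocyte markers summed to 329 to 571 CPM against 10072 to 11048 CPM. In Pdgfra and Csf1r barcodes they were at 296 to 513 and 438 to 718 CPM. In the members 6 microglia markers summed to 4.93 to 12.5 CPM, with Cx3cr1 at 0, and 4 precursor markers to 37.4 to 73.0 CPM. Ependymal and vascular marker sums were instead above those of all other barcodes. The 4 ependymal markers summed to 111 to 166 CPM against 12.1 to 23.2 CPM, none of them at 0. Most of this was Dnah12, a dynein of cilia, higher by 3.54 ± 0.14 on the log2 scale than in all other barcodes. Of the other tested ones Rsph1 fell by 1.39 ± 0.46 and Ccdc153 was not called, at 0.28 ± 0.50. The 5 vascular markers summed to 65.1 to 88.1 CPM against 24.0 to 60.3 CPM, none of them at 0. Most of this was Pdgfrb, a growth factor receptor known from pericytes, higher by 4.11 ± 0.15. The other vascular markers did not rise: Flt1, Cldn5 and Slco1a4 were called lower, at -1.11 ± 0.26, -1.47 ± 0.37 and -1.48 ± 0.26. Rgs5 was not called, at -0.88 ± 0.52. The part of such cells in the results was not tested. Library totals ran from 19714338 to 25824289 UMIs, the members' median depth from 2825 to 3574 UMIs, and 46 members were doublet calls. Libraries shared 36 barcode sequences, none of them among the members.

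The first comparison asked which genes set these nuclei apart from the other 19243 barcodes, summed within each library. Most of the classical astrocyte programmes were higher in the members. Of 14778 genes tested, 2006 were higher and 3133 lower, 34.8% in all (13.6% higher, 21.2% lower), at an adjusted p below 0.05 and an absolute log2 fold change above 1 in edgeR's quasi-likelihood test with library as a block. The 8 selecting and excluding genes were kept out. The fitted scaling set log2 fold changes 0.21 above the ratio of the CPM values printed here. On the CPM scale the counts would be 1704 higher and 3570 lower.

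Among abundant genes the largest increase was that of Aqp9, a channel for water, glycerol and lactate. It stood at 193, 178, 163 and 159 CPM in astrocytes and at 2.60, 1.41, 1.39 and 3.28 CPM in other barcodes, a log2 fold change of 6.50 ± 0.15 (SE, n = 4 libraries). Every astrocyte sum was far above every sum of the others. The next were Cyp4f4 at 6.44 ± 0.28, a fatty acid hydroxylase, Etnppl at 6.41 ± 0.19, which breaks down phosphoethanolamine, and Slc14a1 at 6.38 ± 0.14, a urea transporter. They were followed by the Wnt receptor Fzd2, the zinc transporter Slc39a12, the folate enzyme Aldh1l1, the matrix protein Itih3, the NAD-consuming enzyme Cd38 and the proteoglycan Sdc4, at 6.24 to 6.35. Aldh1l1, a widely used astrocyte marker, was at 88.3, 79.6, 85.9 and 73.1 CPM against 0.642 to 1.91 CPM. The largest decreases were in the following genes. Ltc4s, which makes an inflammatory lipid, had 0 UMIs in the members and 1632 elsewhere, at least 55.3-fold lower against a floor of 3 UMIs over the group. St18, a transcription factor of oligodendrocytes, fell by 7.18 ± 0.16 and Ppp1r16b fell by 6.87 ± 0.15 on the log2 scale. AABR07046961.1 and AABR07054469.1, which carry no gene name, did so as well: the former fell by 8.31 ± 0.22 and the latter fell by 7.15 ± 0.30.

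**Figure D2:**
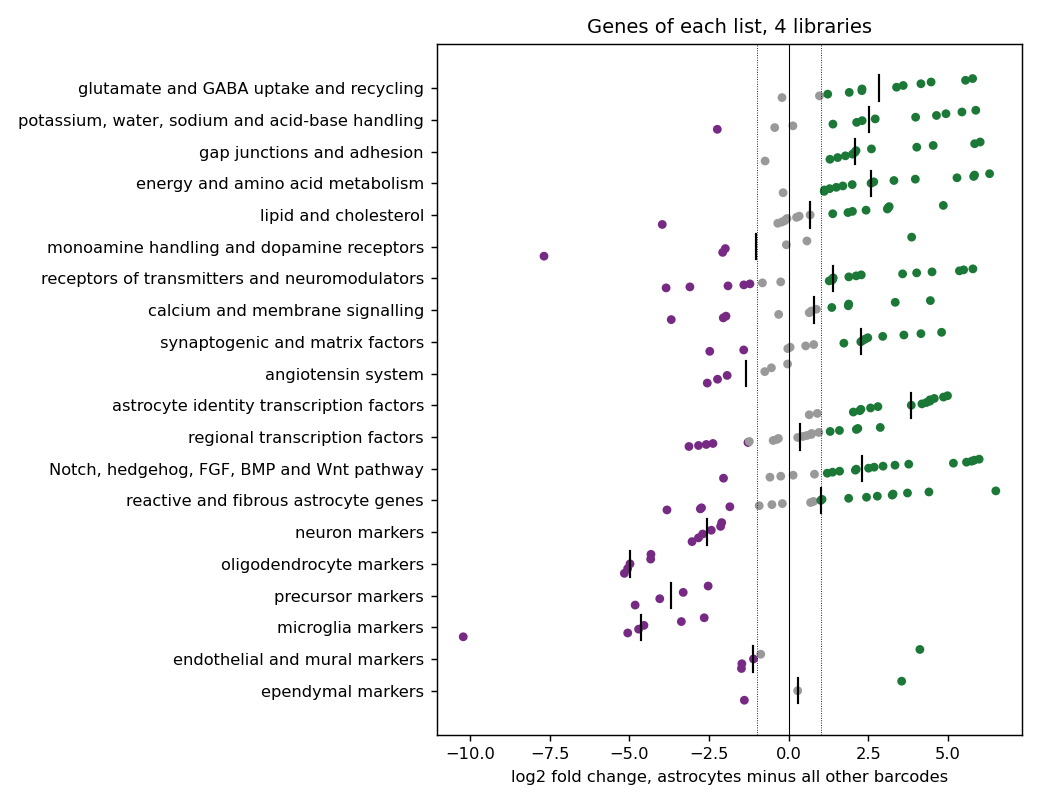
Log2 fold change (horizontal axis) between astrocytes and all other barcodes for the tested genes of 20 gene lists (rows), fitted over 4 libraries. Each point is 1 gene, green where called higher, purple where called lower and grey where not called; black bars are list medians and dotted lines mark a log2 fold change of 1 in either direction. Uptake, adhesion, metabolism and identity lists lie mostly to the right, and markers of neurons, oligodendrocytes, precursors and microglia all lie to the left.

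Glutamate and GABA are cleared from the synapse by transporters and recycled to glutamine. In this list 10 of 12 genes were higher, none was lower, and the median log2 fold change was 2.84 against -0.10 over all genes tested. Slc1a2 stood at 1065, 787, 984 and 922 CPM in astrocytes and 23.8, 17.1, 16.1 and 22.8 CPM in other barcodes, a log2 fold change of 5.77 ± 0.11. The GABA transporter Slc6a11 (GAT-3) was at 1317, 1226, 1320 and 1371 CPM and differed by 5.55 ± 0.10. Glud1, glutamate dehydrogenase, was higher by 3.38 ± 0.08. The 2 that were not called were Slc38a1, a glutamine carrier, at -0.21 ± 0.12, and Glul. Glul, the glutamine synthetase often taken as an astrocyte marker, stood at 235, 187, 297 and 234 CPM in the members and at 399, 263, 452 and 353 CPM in Mog barcodes, higher in the latter in every library. Its log2 fold change against all others was 0.96 ± 0.09, just under the fold threshold.

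Potassium, sodium, water and bicarbonate are buffered by a further set of channels and pumps, of which 9 of 12 tested were higher and 1 was lower (median 2.51). The sodium bicarbonate cotransporter Slc4a4 stood at 5556, 5097, 5321 and 5350 CPM against 109, 90.1, 85.1 and 147 CPM, a log2 fold change of 5.87 ± 0.13. It had a UMI in 99.6% of members. The sodium pump subunit Atp1b2 was higher by 4.63 ± 0.10. The inward rectifier channels differed in size: Kcnj16 by 4.93 ± 0.14 and Kcnj10, the main glial potassium channel, by 2.30 ± 0.11. Kcnj10 stood at 103, 111, 145 and 129 CPM in astrocytes, 60.0, 68.4, 66.5 and 69.6 CPM in Mog barcodes and 0 in all 4 sums of Csf1r barcodes. The gene that was lower was Slc12a2, the chloride importer NKCC1, which fell by 2.24 ± 0.09; it was highest in Mog barcodes, at 1146 to 1497 CPM.

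Gap junction and adhesion genes were higher in 11 of 12 cases (median 2.09). Gjb6 (connexin 30) stood at 199, 105, 207 and 147 CPM and differed by 6.01 ± 0.19, and Gjb2 (connexin 26) differed by 4.53 ± 0.23. Mlc1, a membrane protein of the endfeet, was higher by 5.83 ± 0.13 and the matrix proteoglycan Bcan by 4.02 ± 0.09. Pcdh9 was not called, at -0.74 ± 0.09. Of 15 tested genes of energy and amino acid metabolism 14 were higher (median 2.58), 12 of them on the CPM scale. They included Acsbg1, which activates long fatty acids, at 5.83 ± 0.12, the phospholipase Pla2g7 at 5.80 ± 0.15, the glycogen phosphorylase Pygm at 5.28 ± 0.12 and the glycolytic Aldoc at 2.67 ± 0.09. The serine synthesis gene Psat1 was the one not called (-0.18 ± 0.10).

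Lipid genes were divided. Of 17 tested, 8 were higher and 1 lower, and the median was 0.67. The lipid carriers led. Apoe stood at 10635, 7815, 9115 and 9316 CPM against 426, 336, 274 and 462 CPM, a difference of 4.85 ± 0.13, and Clu differed by 3.12 ± 0.08. In Csf1r barcodes Apoe was at 2365 to 3323 CPM and in Pdgfra barcodes at 1844 to 2402 CPM, below every astrocyte sum. The sterol exporter Abcg1 was the gene that was lower; it fell by 3.97 ± 0.14 and stood at 4.16 to 7.01 CPM.

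**Figure D3:**
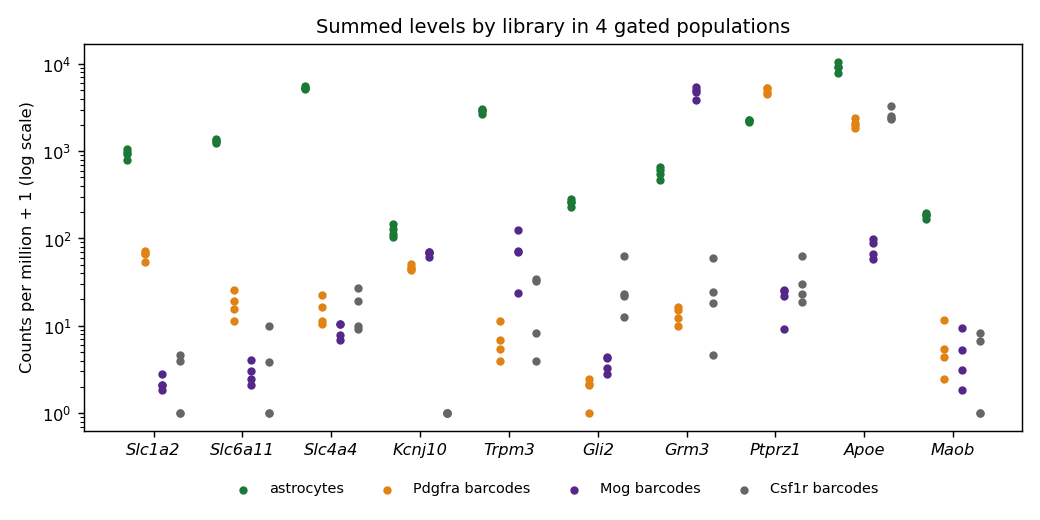
Level of 10 genes (horizontal axis) in CPM plus 1 (vertical log axis), 1 point for each of 4 libraries, in astrocytes (green) and in barcodes selected by Pdgfra (orange), Mog (purple) or Csf1r (grey). Slc1a2, Slc6a11, Slc4a4, Trpm3, Gli2, Apoe and Maob are highest in astrocytes in all libraries, whereas Grm3 is highest in Mog barcodes and Ptprz1 in Pdgfra barcodes.

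Astrocytes near dopamine neurons can take up and break down monoamines. Of the 6 tested genes of this list, Maob, the mitochondrial enzyme that oxidises dopamine, was the one that was higher. It stood at 182, 168, 185 and 197 CPM against 14.0, 12.2, 17.0 and 15.7 CPM (3.86 ± 0.09) and at 0 to 10.5 CPM in the sums of Pdgfra, Mog and Csf1r barcodes. Maoa, its partner enzyme, differed by 0.57 ± 0.11 and stayed under the fold threshold. Drd2, a dopamine receptor, fell by 2.07 ± 0.22, to 2.50 to 9.87 CPM. Slc22a3, a low-affinity monoamine carrier, had no UMI in the members and 1.74 to 3.16 CPM elsewhere.

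Receptors moved in both directions, with 13 of 20 tested higher and 5 lower (median 1.38). On the CPM scale 6 were lower. The neurotensin receptor Ntsr2 stood at 145, 102, 160 and 138 CPM against 1.92 to 3.52 CPM (5.78 ± 0.13). The endothelin receptor Ednrb was higher by 5.49 ± 0.11, the NMDA receptor subunit Grin2c by 5.35 ± 0.10, the adenosine receptor Adora2b by 4.49 ± 0.20 and the GABA-A subunit Gabrb1 by 2.12 ± 0.12. Both listed metabotropic glutamate receptors were lower than in the remaining barcodes: Grm5 fell by 1.22 ± 0.10 and Grm3 fell by 1.41 ± 0.10. Grm3 was still present in 65.8% of members, at 545, 607, 473 and 666 CPM, but Mog barcodes held 4772, 5390, 3909 and 5010 CPM. The serotonin receptor Htr2c fell by 3.85 ± 0.13 and the opioid receptor Oprm1 by 3.10 ± 0.19. Calcium and membrane signalling genes gave 5 higher and 3 lower of 12 (median 0.79). The cation channel Trpm3 was higher by 4.44 ± 0.10 and the phospholipase Plcb1 by 3.34 ± 0.10, and the calcium release channel Ryr3 fell by 3.69 ± 0.17.

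Of 15 tested genes that act on synapses or the matrix, 9 were higher and 2 lower (median 2.26). Sparcl1 (hevin), which promotes synapse formation, differed by 4.15 ± 0.10, the heparan sulphate protein Gpc4 by 3.61 ± 0.19 and the phagocytic receptor Mertk by 2.95 ± 0.10. The guidance cue Slit2 fell by 1.41 ± 0.15. Agt encodes the precursor of angiotensin, but the rest of that system was sparse. Only 6 of 10 listed genes passed the filter on low counts, none was higher, and 3 were lower, with the converting enzyme Ace at 0.500 to 1.04 CPM in the members. Mas1, a receptor of a cleaved angiotensin, had 0 to 2.00 CPM.

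Transcription factors of astrocyte identity were higher in 13 of 15 cases (median 3.84). Sox9, which sets glial fate, stood at 128, 116, 102 and 118 CPM against 4.28 to 6.78 CPM (4.57 ± 0.11). Rorb and Id3 were both higher by 4.43, with SE of 0.14 and 0.18, Nfia by 2.57 ± 0.10 and Zbtb20 by 2.23 ± 0.09. Sox2, which precursors share, was not called at 0.64 ± 0.10. Regional factors gave 5 higher and 5 lower of 20 tested (median 0.36). Meis1 was higher by 2.12 ± 0.09, at 550 to 616 CPM, and at low levels Pax6 (2.87 ± 0.33), Nkx6-1 (2.17 ± 0.30) and Irx5 (1.59 ± 0.22) were higher. Pax7 fell by 3.13 ± 0.42, and the floor plate and dopamine lineage factors Lmx1b and Foxa2 fell by 2.83 ± 0.25 and 2.59 ± 0.43.

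Hedgehog signalling runs from the receptor Ptch1 through Smo to the Gli factors, and all 5 listed genes of it were higher. Gli2 stood at 229, 286, 259 and 263 CPM against 5.67, 4.99, 3.05 and 7.31 CPM (5.82 ± 0.14). Gli1, a direct target often used as a readout, stood at 48.8, 38.0, 67.1 and 53.9 CPM against 0.749 to 1.07 CPM (5.97 ± 0.18). Gli3 was higher by 5.17 ± 0.13, Smo by 3.76 ± 0.09 and Ptch1 by 3.33 ± 0.09. Over the whole list of Notch, hedgehog, FGF, BMP and Wnt genes, 15 of 20 were higher and 1 lower (median 2.31). On the CPM scale 14 were higher. The BMP receptor Bmpr1b and the FGF receptor Fgfr3 were higher by 5.74 ± 0.11 and 5.58 ± 0.15, and the Notch ligand Dll1 was the one that fell, by 2.05 ± 0.30.

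Genes that rise in reactive or fibrous astrocytes were mixed. Of 29 listed, 27 were found and 19 passed the filter. Of these 10 were higher and 4 lower, with a median of 1.00. On the CPM scale 8 were higher and 5 lower, and Vim was among those that lost the call. Gfap stood at 256, 252, 274 and 198 CPM against 5.29 to 8.56 CPM (5.38 ± 0.14). The hyaluronan receptor Cd44 was higher by 3.24 ± 0.16 and the calcium-binding S100b by 2.44 ± 0.09. The complement gene C3, a common marker of reactive states, fell by 3.82 ± 0.66 and stood at 0, 0, 0 and 0.612 CPM. Vim was called at 1.00 ± 0.35, on levels of 1.00 to 6.91 CPM. It lost the call without male 1 (0.86), without male 2 (0.68) and without doublet calls (0.45). Its log2 differences of CPM plus 1 were 0.23, -0.41, 1.19 and 1.01, so it was lower in female 2.

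Oligodendrocyte precursors, the other glia that tile the brain, were compared next, as the 1027 Pdgfra barcodes. Many astrocyte transport genes separated the populations, while several shared glial factors were not called. Of 9554 genes, 1326 were higher and 1415 lower in astrocytes, 28.7% in all. The 10 abundant genes with the largest fitted increases included Ntsr2, Gucy1b2, Sult1d1 and Itga7, each with 0 UMIs in precursors. Against a floor of 3 UMIs over the group they were at least 147-fold, 109-fold, 88.5-fold and 67.3-fold higher in astrocytes. Gli1 also had 0 UMIs there and was at least 55.7-fold higher. Etnppl had 1 UMI in precursors and 3697 in astrocytes, Pla2g7 had 1 and 1962, and Nwd1 had 2 and 2735. AABR07058658.1 had 1 and 3045 UMIs, and Slc39a12 differed by 8.95 ± 0.20.

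By role, 8 of 12 uptake genes were higher than in precursors and 1 was lower (median 2.42), and of 11 potassium and water genes 8 were higher (median 2.65). Slc4a4 was higher by 8.56 ± 0.13 and Slc6a11 by 6.28 ± 0.14. Glul, which was not called against all other barcodes, differed here by 3.46 ± 0.14, with 16.0, 21.1, 25.0 and 25.5 CPM in precursors. Gpt2, an alanine aminotransferase, fell by 1.15 ± 0.11. The potassium channels differed less, Kcnj10 by 1.44 ± 0.13 and Kcnj16 by 1.21 ± 0.18; the latter was 0.98 without male 2.

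Of 17 lipid genes 10 were higher and 2 lower than in precursors (median 1.52). The regulator Srebf1 was higher by 3.88 ± 0.18, and the sterol synthesis genes Hmgcs1 and Msmo1 by 1.79 ± 0.16 and 1.52 ± 0.12. Sqle (-0.22 ± 0.11) was not called. Abcg1 fell by 3.56 ± 0.21, as it did against all other barcodes, and the fatty acid binding protein Fabp7 fell by 1.17 ± 0.16.

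In the receptor list 12 of 18 were higher and 2 lower (median 1.87). Grm3, which was lower than in all other barcodes, was higher than in precursors by 5.55 ± 0.13. Grm5 fell by 2.02 ± 0.09 and the AMPA receptor subunit Gria2 fell by 1.89 ± 0.08. Calcium handling was divided. Trpm3 stood at 2992, 2908, 2698 and 3076 CPM in astrocytes and 10.3, 5.85, 2.94 and 4.43 CPM in precursors (8.94 ± 0.15). Ryr3 stood at 14.0, 21.5, 35.5 and 36.4 CPM in astrocytes and 1560, 1448, 1528 and 1393 CPM in precursors, and fell by 5.74 ± 0.15. The sodium-calcium exchanger Slc8a1 fell by 2.46 ± 0.09. The 6 neuron markers summed to 928 to 1303 CPM in precursors against 291 to 440 CPM in astrocytes. The part of neuron transcripts in the lower genes of this comparison was not tested.

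Notch genes went in both directions. The ligand Dll1 fell by 4.90 ± 0.26 and the ligand Jag1 fell by 2.02 ± 0.19, the receptor Notch2 was higher by 4.67 ± 0.19, and Notch1 did not pass (-0.13 ± 0.09). Over this list 12 of 18 were higher and 2 lower (median 2.15). Egfr was higher by 5.02 ± 0.30, with 32.8 CPM in the precursors of female 2 and 0 to 3.42 CPM in those of the other libraries. Of 13 identity factors 9 were higher and none was lower (median 2.72), and Sox2 (0.17 ± 0.11) and Nfib (0.11 ± 0.07) were among the others. Ptprz1, a phosphatase often used as a marker of both lineages, stood at 2302, 2268, 2184 and 2232 CPM in astrocytes and 5262, 4726, 5322 and 4553 CPM in precursors, and fell by 1.10 ± 0.07. Nlgn1 fell by 1.12 ± 0.07. The largest decreases among abundant genes were in Susd5, Galnt3, Fam89a, Inava and B3gnt7. Galnt3 had 0 UMIs in astrocytes, at least 163-fold lower, and Fam89a fell by 9.27 ± 0.23.

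Gfap divided the members. A Gfap UMI was found in 637 of 2363 nuclei, 27.0% of all, and in 27.0%, 27.9%, 33.0% and 24.9% of the members of each library. After thinning every nucleus to 1500 UMIs, with 236 shallower members left out, the share was 17.9%, 17.9%, 22.0% and 18.0% (mean 19.0% ± 2.06, SD, n = 4 libraries). The background measured the same way was 0.891% ± 0.133 in all other barcodes, 0.624% ± 0.120 in Mog barcodes and 0.639% ± 0.411 in Pdgfra barcodes, each at a median depth of 2428 to 2955 UMIs before thinning against 3082 in members. Gfap was unevenly spread. Of the 637 positive nuclei 324 held a single Gfap UMI and 208 held 2 to 4. Thinning lowered the positive share, so a Gfap-zero nucleus need not lack Gfap RNA. Some 105 nuclei with 5 or more UMIs held 54.8% of the 1922 Gfap UMIs of all members, and the highest nucleus had 37.

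To compare nuclei with and without a detected Gfap UMI at the same depth, pairs were matched within each library. Each Gfap-positive nucleus was matched to a Gfap-zero nucleus whose total UMIs lay within 10%, which gave 154, 134, 89 and 255 pairs. Of 7375 genes tested, 82 were higher and 69 lower in the Gfap-positive nuclei, 2.05% in all (1.11% higher, 0.936% lower), at an adjusted p below 0.05 in edgeR's quasi-likelihood test with library as a block. DESeq2 called 21 higher and 19 lower, all among those genes, and without male 2 the counts were 45 and 41. Without the block they were 18 and 13. With a lower threshold of 2 summed UMIs for membership, which brings in the barcodes that carried neuron transcripts, they were 158 and 247. Among the 50 genes named for this contrast, 22 lost their call in DESeq2 and 23 lost it without the block. These 50 include Slc1a2, Kcnj10, Gjb6, Glul, Stat3, Snap25, Stmn2, Mbp, Id2 and Bmpr1b, which were not called and had no call to lose. Of 12 uptake genes 1 was higher and 1 lower (median -0.05), and of 11 potassium and water genes none was called in either direction (median 0.05). Slc1a2 was at -0.04 ± 0.07, Kcnj10 at -0.34 ± 0.14, Gjb6 at -0.40 ± 0.13 and Glul at -0.21 ± 0.10.

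Tnc, Id1 and Id3 rose in every library. Tnc, the matrix glycoprotein tenascin C, stood at 157, 111, 87.9 and 170 CPM in Gfap-positive nuclei and 22.8, 23.6, 8.40 and 29.0 CPM in their matches, a log2 fold change of 2.59 ± 0.20 (edgeR adjusted p = 1.99e-18). Id1 and Id3, which encode proteins that block bHLH transcription factors and are classical targets of BMP signalling, were both called. Id3 stood at 95.6, 53.7, 113 and 82.9 CPM against 17.5, 23.6, 19.6 and 21.5 CPM (1.98 ± 0.22). Id1 was scarcer, at 17.4, 21.8, 30.2 and 30.8 CPM against 3.37 to 8.40 CPM (2.32 ± 0.41). For these 3 called genes every positive sum lay above every zero sum. The share of all genes tested that do so was not counted. Of the 12 tested identity factors Id1, Id3 and Id4 (0.53 ± 0.15) were higher, and Id2 was at 0.41 ± 0.13 (edgeR adjusted p = 0.0714). The BMP receptor Bmpr1a was the 1 gene of 16 tested pathway genes that was called, at 0.48 ± 0.12, and Bmpr1b was at 0.33 ± 0.13 (edgeR adjusted p = 0.232).

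Because these genes moved with Gfap itself, the 250 bases before the RefSeq start of each (assembly GRCr8, read 5′ to 3′ on the gene's strand) are shown. They were searched on both strands for 3 motifs, wherever in the window they lay. These were GGCGCC, a core bound by BMP-activated SMAD proteins, TTCNNNGAA, the STAT element, and TATAAA, the letters of the TATA box. Capitals mark a match. They lie at chr10:88361662-88361911 (Gfap, minus strand), chr5:82476132-82476381 (Tnc, minus strand), chr3:161671314-161671563 (Id1, plus strand) and chr5:153656041-153656290 (Id3, plus strand).
Gfap: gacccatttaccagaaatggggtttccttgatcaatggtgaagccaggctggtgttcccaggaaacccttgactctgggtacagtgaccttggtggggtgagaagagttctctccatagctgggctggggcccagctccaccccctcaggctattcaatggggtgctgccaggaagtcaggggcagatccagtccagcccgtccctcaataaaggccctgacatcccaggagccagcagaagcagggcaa
Tnc: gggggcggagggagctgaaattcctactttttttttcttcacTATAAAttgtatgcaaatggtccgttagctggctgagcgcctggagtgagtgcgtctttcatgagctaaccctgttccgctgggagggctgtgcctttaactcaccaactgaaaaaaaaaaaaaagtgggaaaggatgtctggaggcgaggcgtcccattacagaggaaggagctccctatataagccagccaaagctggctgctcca
Id1: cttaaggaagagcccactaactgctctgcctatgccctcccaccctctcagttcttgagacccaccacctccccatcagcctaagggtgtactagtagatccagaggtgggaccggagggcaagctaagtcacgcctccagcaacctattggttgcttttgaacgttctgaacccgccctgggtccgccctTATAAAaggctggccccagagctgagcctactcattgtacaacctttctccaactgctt
Id3: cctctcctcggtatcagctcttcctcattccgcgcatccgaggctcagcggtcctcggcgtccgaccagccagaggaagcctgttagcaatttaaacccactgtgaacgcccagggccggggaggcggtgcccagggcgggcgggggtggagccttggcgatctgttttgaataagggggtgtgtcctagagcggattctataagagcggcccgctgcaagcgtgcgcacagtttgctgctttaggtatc
Only TATAAA was found, in Tnc and Id1. The Tnc match lies near the end of the window far from the start, and the Id1 match lies nearer the start. TATAAA occurs in 12.9% of all 33469 promoter windows of this length. Among genes with a window, 6.28% of those tested and 4 of the 63 called higher (6.35%) held it. GGCGCC occurs in 8.69% of all windows and in 10 of the 63 called higher genes with a window (15.9%, against 19.7% of the genes tested). TTCNNNGAA occurs in 7.67% of all windows and in 3 of those 63 (4.76%, against 5.83% of the genes tested). Only these 250 bases were searched, so sites further from the start could not be found. A match is a run of letters and not a measured binding site.

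Of the lipid genes, the carriers Apoe and Clu and the enzyme Lcat were also higher. Apoe stood at 12733, 9197, 11185 and 10579.9 CPM against 8864, 6779, 7473 and 7490 CPM, a small but even rise of 0.51 ± 0.05 (edgeR adjusted p = 4.19e-15). Lcat, which esterifies cholesterol on lipoproteins, was higher by 1.27 ± 0.22 and Clu by 0.32 ± 0.06, so 3 of 16 lipid genes rose and none fell (median 0.15). Of 13 tested synaptogenic and matrix genes 2 were higher and 2 lower (median -0.03): Tnc and Sparcl1 (0.23 ± 0.05) rose, and Slit2 and Gpc6, described with the lower genes, fell. Bcan, at 0.29 ± 0.07, was the 1 called gene of 12 in the gap junction and adhesion list. Reln, a secreted guidance protein, stood at 157, 252, 140 and 145 CPM against 66.6, 65.7, 44.8 and 53.7 CPM (1.55 ± 0.15). Adamts9, a matrix protease, was higher by 1.28 ± 0.14, and Sulf1, which trims heparan sulphate, by 1.72 ± 0.30. Caln1, a calcium-binding protein, stood at 183, 247, 90.6 and 237 CPM against 54.3, 35.4, 58.8 and 51.6 CPM (2.01 ± 0.17), lowest among the positive sums in male 1. Rpe65, Ccdc148, AABR07044388.2 and AABR07044900.1 were the others among the 10 with the lowest p, at 1.25 ± 0.14, 1.15 ± 0.14, 2.38 ± 0.31 and 1.24 ± 0.15.

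Of the 10 tested reactive and fibrous genes 3 were higher and none was lower (median 0.24). Cd44 stood at 60.9, 53.7, 54.9 and 88.2 CPM against 24.5, 13.5, 50.4 and 37.6 CPM (1.15 ± 0.22), with little difference in male 1. Sulf1 and S100b (0.29 ± 0.07) were the others, and Stat3 was at 0.43 ± 0.15 (edgeR adjusted p = 0.173). In metabolism and transport, the glutamine carrier Slc38a1 was higher by 1.00 ± 0.15, the monocarboxylate carrier Slc16a1 by 0.73 ± 0.20 and Pla2g7 by 0.48 ± 0.10. Grin2c and Gabbr1 were higher by 0.36 ± 0.09 and 0.25 ± 0.07. Dnah12 was called higher at 1.14 ± 0.15 and was among the calls lost in DESeq2. It rose in 3 of 4 libraries and was lower in male 1 (126 against 165 CPM). It made up most of the ependymal marker sum, which was 129 to 278 CPM in positive and 67.7 to 171 CPM in zero nuclei. The 5 oligodendrocyte markers summed to 466, 322, 717 and 440 CPM in positive and 365, 312, 425 and 396 CPM in zero nuclei, higher in positive nuclei in all 4 libraries, and none of the 5 was at 0. Of these Mbp was not called, at 0.44 ± 0.16, but with Gfap at 5 or more UMIs it was called at 1.74 ± 0.38. The part of these markers in the contrast was not tested. The selecting genes, which were not tested, stood at a mean of 1203 ± 162 against 650 ± 90.9 CPM for Aqp4 and 630 ± 133 against 746 ± 115 CPM for Slc7a10 (SD, n = 4 libraries) in positive and zero nuclei.

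**Figure D4:**
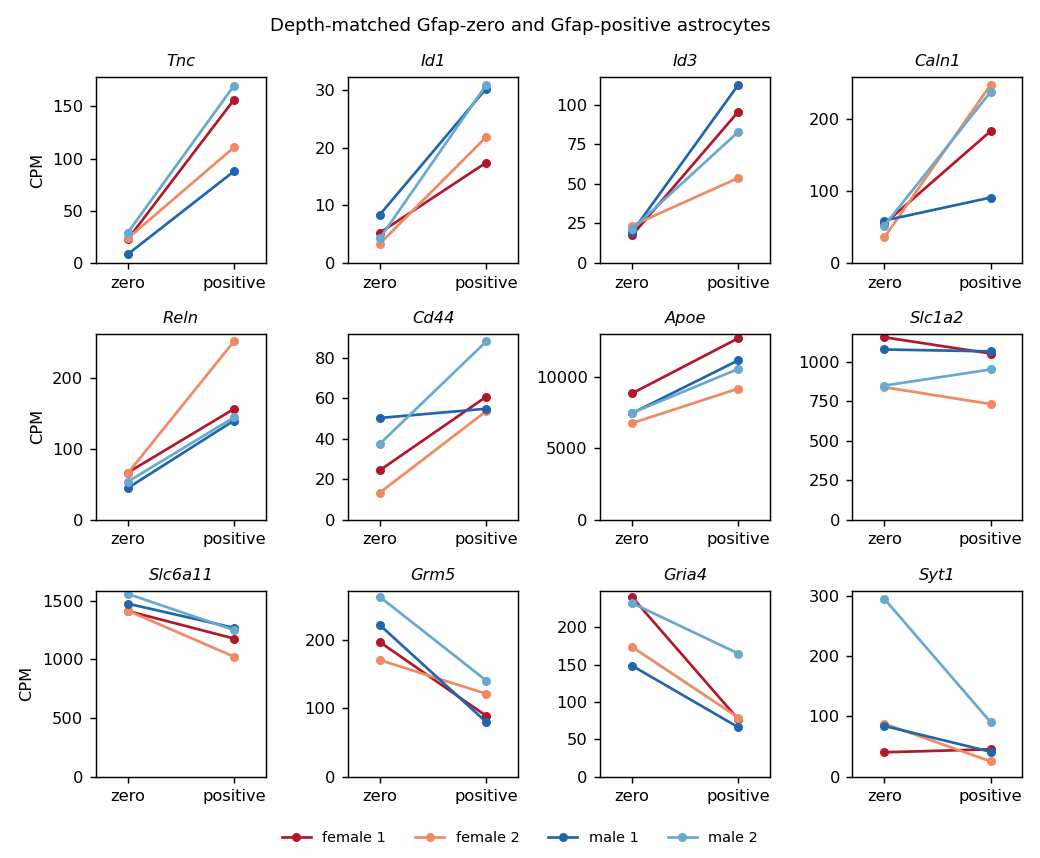
Level in CPM (vertical axes, each from 0) of 12 genes in depth-matched Gfap-zero and Gfap-positive astrocytes (horizontal axis); each line joins the sums of 1 library (red and orange female, blue and light blue male). Tnc, Id1, Id3, Caln1, Reln, Cd44 and Apoe rise in every library, Slc6a11, Grm5 and Gria4 fall in every library, Slc1a2 shows no common direction, and Syt1 falls in 3 of 4.

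Several of the lower genes encode proteins known from neuronal synapses. The 10 with the lowest p were Lrrtm4, Lrfn5, Nkain2, Snhg11, Grm5, Syt1, Gria4, AABR07033882.1, Grm8 and Rims1. Lrrtm4 and Lrfn5 are synaptic adhesion proteins, and Syt1 and Rims1 act in vesicle release. The neuron marker sum was lower in 3 of 4 libraries. The 6 markers summed to 210, 116, 159 and 211 CPM in Gfap-positive nuclei and 188, 214, 235 and 489 CPM in Gfap-zero nuclei, none of the 6 at 0 in either group, and in female 1 the positive sum was the higher one. Of the 3 that could be tested Syt1 fell by 1.34 ± 0.18, and Snap25 and Stmn2 were not called, at -0.51 ± 0.17 and -0.20 ± 0.26 (edgeR adjusted p = 0.0964 and 0.879). In an alternative chosen after seeing the data, with only nuclei that held no UMI of the 6 markers, 47 genes were higher and 24 lower. Of the main calls 41 of 82 higher and 16 of 69 lower ones were among them, and 115 of the 151 genes could still be tested. Lrrtm4, Lrfn5, Nkain2, Snhg11, Grm8 and Rims1 no longer passed the filter on low counts there. Neither did Id1 and Sulf1, which were higher in the main comparison. That alternative had 93, 92, 55 and 176 pairs, fewer than the main comparison in every library. The part of the smaller number of pairs in the lost calls was not tested.

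Of the 115 genes still tested in the nuclei without neuron markers, 114 kept their direction. Some lower genes were as low or lower there, and others were nearer to no difference. The GABA transporter Slc6a11 stood at 1177, 1023, 1269 and 1250 CPM in positive nuclei against 1413, 1415, 1475 and 1559 CPM, and fell by 0.32 ± 0.06 (edgeR adjusted p = 6.38e-05). It was -0.41 ± 0.08 in the nuclei without neuron markers (edgeR adjusted p = 0.000148). In the members with 5 or more Gfap UMIs it stood at 739, 531, 836 and 1105 CPM. The AMPA subunit Gria4 fell by 0.99 ± 0.14 and was at -0.74 ± 0.17 in that alternative. Grm5 stood at 88.7, 121, 79.7 and 140 CPM against 196, 170, 221 and 262 CPM (-0.94 ± 0.13) and gave -0.94 ± 0.16 there, but with Gfap set at 5 or more UMIs it was at 0.62 ± 0.34 (edgeR adjusted p = 0.49). Slit2 fell by 0.99 ± 0.18, higher rather than lower in female 2, and was at 0.15 ± 0.24 without neuron markers. Gria2 and Gpc6 fell by 0.39 ± 0.08 and 0.43 ± 0.08 and did not keep their calls there (-0.27 ± 0.10 and -0.29 ± 0.10). Among the higher genes Tnc and Id3 were at 3.47 ± 0.28 and 2.59 ± 0.31 in the same nuclei, and Clu, at 0.18 ± 0.08, lost its call.

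**Figure D5:**
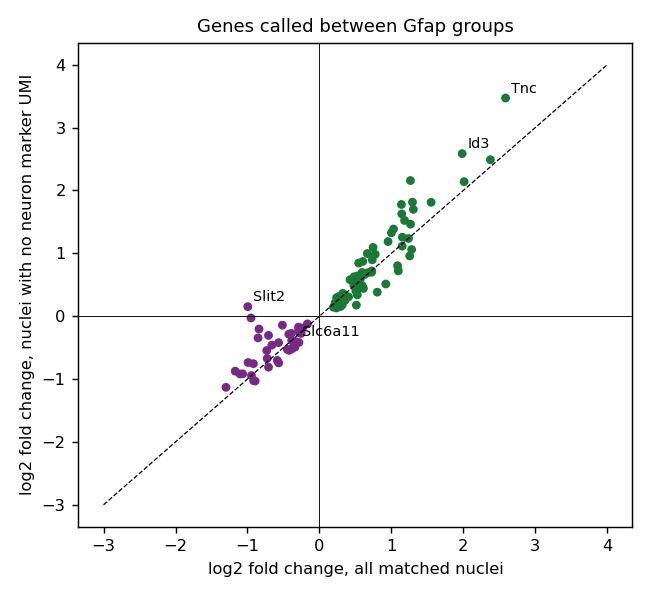
Log2 fold change between Gfap-positive and Gfap-zero astrocytes for the genes called with all matched nuclei (horizontal axis) against the value with nuclei that hold no UMI of 6 neuron markers (vertical axis); green points are higher and purple points lower genes, of 115 that could be tested in both. The dashed line marks equal values, Tnc and Id3 lie above it, and Slit2 is the labelled gene that changes sign.

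Sex was the study's factor. The share of astrocytes was 9.65% ± 0.169 in females and 11.1% ± 5.10 in males (SD, n = 2 libraries each), a difference of -1.48 percentage points (exact two-sided permutation p = 1, where the smallest possible p is 0.3333). Male 2 decided its sign: without it the difference was 2.13 points, and without male 1 it was -5.08. The thinned Gfap-positive share was 17.9% ± 0.0368 in females and 20.01% ± 2.89 in males, a difference of -2.08 points (exact two-sided permutation p = 0.3333) that was -0.0386 without male 1.

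Between astrocyte sums of the sexes, 13 of 10829 genes were called (0.12%), 3 higher in females (0.0277%) and 10 higher in males (0.0923%), and 359 had an unadjusted p under 0.05 (3.32%). None of the 12 uptake, 11 potassium and water, 17 lipid or 15 identity genes tested was called. The label check came out as labelled. Eif2s3y had 0 UMIs in female and 378 in male astrocytes, at least 115-fold higher in males, and Kdm5d had 4 and 427. Of the other calls AC241873.1, Ddx3, AC239701.4, Klkb1 and AABR07060487.1 were also higher in males. AABR07039356.2, with 1181 UMIs in females and 0 in males (at least 430-fold higher in females), LOC680227 and Npsr1 were higher in females. The few female UMIs of Kdm5d (4) and Ddx3 (3) are uncertain, and their source was not tested. Related copies lie on both sex chromosomes, and the counting of shared reads was not stated. Klkb1, the plasma kallikrein gene, had 0 female and 73 male UMIs, at least 22.3-fold higher.

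The remaining calls were less even. Slit2, the 1 listed astrocyte gene called, was lower in both female sums (74.3 and 51.6 CPM) than in both male sums (145 and 132 CPM) (female minus male -1.10 ± 0.18, edgeR adjusted p = 0.025), and -1.33 ± 0.25 in nuclei without neuron markers. Il1rapl2 was at -1.79 ± 0.24 and at -0.19 ± 0.41 (edgeR adjusted p = 1) in those nuclei. The zeta-crystallin gene Cryz was at -1.42 ± 0.24. Leaving out 1 library leaves 1 for that sex, which is then assumed to vary like the 2 of the other sex. It gave 60 calls without female 1, 44 without female 2, 27 without male 1 and 52 without male 2, and with the replicate number as a block there were 7. Whether the Gfap contrast differed between the sexes was tested as an interaction. It gave 1 of 8231 genes (0.0121%), Cntnap5b, in edgeR and 0 in DESeq2, and 381 genes had an unadjusted p under 0.05 in edgeR (4.63%) and 3 in DESeq2.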

How the data were processed

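Frozen ventral tegmental tissue was lysed, and nuclei were sorted and barcoded with 10x Genomics 3' v3 chemistry, per the labels' protocols. Each deposited matrix holds whole-number UMI counts without scaling, per the file headers, where a software version of 3.0.2 stands; Cell Ranger and the build rn6 are named in the submitters' processing notes. Aligner settings and any removal of free RNA were not given in the sources used here. No barcode held fewer than 501 UMIs.

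Members, gene lists and tests were chosen with earlier results of these data known. No barcode was removed from the main comparisons. Doublets were scored with Scrublet in scanpy 1.11.5 (highest 0.8% per 1000 barcodes), and low quality meant under 200 genes or over 5% mitochondrial UMIs; both were left out as an alternative.

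UMI counts were summed per library and population and tested with edgeR 4.0.16 in R 4.3.3 (TMM scaling, filterByExpr, quasi-likelihood test, Benjamini-Hochberg adjustment over all genes tested), with library as a block except between sexes. SE was taken as the absolute log2 fold change divided by the root of the F statistic. Calls needed an adjusted p below 0.05 and, for the first 2 comparisons, an absolute log2 fold change above 1. The 8 gating genes, and Gfap where it split the members, were left out before scaling. Shares were compared by exact permutation over libraries (scipy 1.17.1). Alternatives were DESeq2 1.42.0, all genes unfiltered, leaving out libraries in turn, other thresholds for membership, Gfap and matching, and no block; 3 more were chosen after seeing the data. Promoter windows are RefSeq's, on GRCr8; of the listed genes 7 were not found by name and Hoxa2 was on more than 1 feature.

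Genes were named by rule: the gating genes, Gfap and listed genes by role; among called genes at 20 CPM or more with 1 direction in all libraries, the 10 largest increases and 5 largest decreases; for Gfap the 10 higher and 10 lower with the lowest p; for sex up to 8 with the lowest p, while the other 5 calls there were named after their values were seen. Each test was first tested on simulated data. Results on some listed genes are not reported here.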

Additional observations from a re-analysis of the deposited data

Results flagged for a closer look

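Among 204 pairs of a named gene and a comparison, 9 had 1 library whose log2 difference lay apart from the other 3 by Dixon's test; chance flags about 1 in 20. Differences here are of CPM plus 1, so they are smaller than the fitted values for scarce genes. Against all other barcodes, Kcnj16 was at 4.63 in male 1 and at 4.12 to 4.19 elsewhere, and Nkx6-1 was at 0.87 in male 2 and 1.66 to 1.81 elsewhere. Against precursors, male 2 stood apart for Mlc1 (7.71, others 6.69 to 6.77), Gpc6 (-0.75, others -1.20 to -1.18) and Zbtb20 (0.78, others 0.57 to 0.59). In the same comparison Grin2c was at 6.39 in female 2 (others 8.16 to 8.37) and Pla2g7 at 6.55 in male 1 (others 7.83 to 8.02); both had 1 or 2 precursor UMIs in all, and these lay in the library named. Between Gfap groups, Gjb6 was at 0.09 in female 2 and at -0.55 to -0.47 in the others, and Snap25 was at -0.85 in male 2 and -0.32 to -0.28 elsewhere.

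The Gfap contrast differed between the sexes in the interaction test for Cntnap5b, a neurexin-like adhesion protein, by 2.76 ± 0.57 on the log2 scale (males minus females, edgeR adjusted p = 0.0122). Its Gfap-zero sum was at 148 CPM in female 2 and at 7.01, 67.2 and 39.8 CPM in female 1, male 1 and male 2. The Gfap-positive sums were at 6.96, 8.40, 10.99 and 45.7 CPM.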

How the results depend on the processing

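Against all other barcodes the count of called genes was 4794 to 5576 over the alternatives run (5139 as reported), and against precursors it was 2670 to 3753 (2741), always within 1.5 times; 936 of 946 and 544 of 550 comparisons of a called, named gene with an alternative kept direction and call. The Gfap contrast depended more on settings, with 461 of 567 kept. Its 151 calls became 40 in DESeq2, 405 with a membership threshold of 2, 31 without the replicate block and, as alternatives chosen after seeing the data, 100 with Gfap at 5 or more UMIs and 71 in nuclei without neuron marker UMIs; leaving out 1 library gave 86 to 145. Grm5 turned to 0.62 with Gfap at 5 or more, Slit2 to 0.15 without neuron markers, Stmn2, not called as reported, to 0.02 without low-quality barcodes and doublet calls and to -0.49 to 0.16 with 1 library left out, and Slc1a2, not called as reported, to 0.06 with a membership threshold of 2, to 0.00 without depth matching and to -0.13 to 0.01 with 1 library left out. Between the sexes 116 of 140 such comparisons were kept, and the 13 calls became 29 without a filter on low counts, 8 with a membership threshold of 2, 7 with one of 5, 8 without low-quality barcodes and doublet calls, and 27 to 60 with 1 library left out. The interaction's 1 call became 0 in DESeq2, 12 with a membership threshold of 2, 0 with one of 5, 5 without low-quality barcodes and doublet calls, and 1 to 5 with 1 library left out; Cntnap5b was at -1.01 without low-quality barcodes and doublet calls and at -0.49 to 3.64 with 1 library left out, negative without female 2. The sex difference in astrocyte share was -5.08 to 2.13 points with 1 library left out. The cause of these shifts was not tested. Female and male libraries share replicate numbers, but same-numbered libraries shared only a number (correlation of their deviations 0.132 over 10829 genes, 2 pairs), and the replicate block left 7 sex calls. A lone library left for a sex is assumed to vary like the others.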

Other observations

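Regional and fibrous genes also set astrocytes apart from precursors. Of 5 regional factors tested there, Meis1 was higher by 2.66 ± 0.11, and Pax3 and Irx1 fell by 3.14 ± 0.27 and 1.24 ± 0.21. Of 11 reactive and fibrous genes 5 were higher and 3 lower (median 0.18): the laminin receptor subunit Itga6 was higher by 7.48 ± 0.21 and Cd44 by 4.43 ± 0.36, and the small heat shock protein Cryab fell by 1.67 ± 0.18. Metabolic genes were higher in 14 of 15 cases (median 1.98), and Maob was higher by 5.17 ± 0.22.

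Of the vascular markers, Pdgfrb was higher in the members at 58.2, 60.1, 65.1 and 71.6 CPM against 3.02 to 6.38 CPM, and it was not called between Gfap groups. Flt1 and Slco1a4, which mark endothelium, fell by 1.11 ± 0.26 and 1.48 ± 0.26 in the members; Flt1 was at -0.78 without male 2 and at -0.32 with the membership threshold at 2.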
